A study of Mus musculus with 6 samples.

Results

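Replication-dependent histone genes encode the core histones H2A, H2B, H3 and H4 and the linker histones H1 that package newly made DNA. They were taken here as the genes whose symbol in the probe annotation starts with H2ac, H2bc, H3c or H4c followed by a number, or is H1f1 to H1f5. The rule found 51 genes with 55 probes, of 16561 named genes and 25697 probes on the array. By family these were 14 H2A, 13 H2B, 9 H3, 10 H4 and 5 H1 genes, of which 43 lie on mouse chromosome 13 and 8 on chromosome 3. The cells were TUBO, an epithelial line established from a mammary tumour of a female BALB-neuT mouse, a strain that carries a rat oncogene as a transgene in mammary epithelium. Total RNA of adherent TUBO cultures was hybridised to 6 Illumina bead arrays, 3 titled TMA and 3 titled TDA. According to titles, design text and growth protocol, TMA cells grew in mammosphere medium without serum, to which basic fibroblast growth factor and epidermal growth factor at 20 ng/ml each, insulin at 5 µg/ml and 0.4% bovine serum albumin had been added. By the same sources TDA cells grew in DMEM that held 20% fetal calf serum. The samples' source names swap the media, so the groups are called by their titles, and which medium lies behind a direction is unsettled. Both groups are the same single cell line, and no label says whether the 3 samples of a group were separate cultures, so p-values reflect only how these samples vary, and that variation may be technical.

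Core histones assemble into the nucleosome, in which a tetramer of H3 and H4 is joined by dimers of H2A and H2B, and H1 binds the linker DNA between nucleosomes. Their clustered genes are transcribed mostly in S phase, and their mRNAs end in a conserved stem-loop, bound by the stem-loop binding protein Slbp, in place of a poly(A) tail. Some of these genes also make polyadenylated transcripts, in particular in cells that leave the cycle. The labels name only the standard Illumina labelling procedure and not its primer. How much of a histone signal came from transcripts with a tail was not tested. Members of a family are close to identical in their coding sequence, and the probe sequences were not used here, so a probe may also read other genes of its family.

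Many H2A and H2B genes lie head to head and share the stretch from which both are transcribed, so the promoters are shown first. Windows of 300 bases, 250 before and 50 from the annotated start on, were taken from RefSeq on GRCm38.p6 for 46 of the 51 genes. Printed below are an H2A gene with one of the largest differences between the groups (H2ac15), the brightest H2A gene (H2ac24), an H2A gene with almost no difference (H2ac18), and 1 gene of each other family. Capitals mark TATAAA (the TATA box), CCAAT (the box bound by NF-Y), ATTTGCAT (the octamer bound by Oct1) and TTTCGCGC or TTTGGCGC (E2F-type), searched on both strands, so that a match on the other strand appears as its reverse complement.
H2ac15 (chr13:21753863-21754162, minus strand): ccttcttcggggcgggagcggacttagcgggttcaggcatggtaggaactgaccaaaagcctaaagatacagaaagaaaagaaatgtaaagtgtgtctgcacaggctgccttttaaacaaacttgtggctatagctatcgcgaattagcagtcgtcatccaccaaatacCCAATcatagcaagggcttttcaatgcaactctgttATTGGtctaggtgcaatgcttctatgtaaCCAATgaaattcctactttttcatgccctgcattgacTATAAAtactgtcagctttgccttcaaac
H2ac24 (chr13:21833426-21833725, minus strand): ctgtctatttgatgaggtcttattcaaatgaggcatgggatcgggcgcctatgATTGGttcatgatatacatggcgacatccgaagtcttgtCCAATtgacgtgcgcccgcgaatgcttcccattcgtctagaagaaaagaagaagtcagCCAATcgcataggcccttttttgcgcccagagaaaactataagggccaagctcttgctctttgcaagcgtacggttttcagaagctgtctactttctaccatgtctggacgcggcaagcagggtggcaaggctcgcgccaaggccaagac
H2ac18 (chr3:96245247-96245546, plus strand): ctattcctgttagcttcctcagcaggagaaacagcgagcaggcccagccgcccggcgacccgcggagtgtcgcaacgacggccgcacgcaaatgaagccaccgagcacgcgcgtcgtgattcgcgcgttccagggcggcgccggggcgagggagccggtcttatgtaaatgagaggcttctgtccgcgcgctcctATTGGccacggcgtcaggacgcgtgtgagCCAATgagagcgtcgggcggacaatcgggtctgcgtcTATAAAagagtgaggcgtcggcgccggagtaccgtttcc
H2bc7 (chr13:23574158-23574457, minus strand): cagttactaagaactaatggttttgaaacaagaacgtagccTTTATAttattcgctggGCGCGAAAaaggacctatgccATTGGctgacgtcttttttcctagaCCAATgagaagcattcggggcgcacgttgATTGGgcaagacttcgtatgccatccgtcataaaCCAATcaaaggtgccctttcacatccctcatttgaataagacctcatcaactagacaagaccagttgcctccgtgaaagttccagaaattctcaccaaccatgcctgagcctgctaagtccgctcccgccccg
H3c6 (chr13:23562336-23562635, minus strand): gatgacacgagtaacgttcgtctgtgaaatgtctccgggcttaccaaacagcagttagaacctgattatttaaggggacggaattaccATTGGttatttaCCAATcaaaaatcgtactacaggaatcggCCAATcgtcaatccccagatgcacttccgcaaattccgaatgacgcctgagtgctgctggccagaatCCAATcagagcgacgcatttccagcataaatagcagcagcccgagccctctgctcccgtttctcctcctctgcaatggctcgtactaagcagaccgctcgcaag
H4c11 (chr13:21734784-21735083, plus strand): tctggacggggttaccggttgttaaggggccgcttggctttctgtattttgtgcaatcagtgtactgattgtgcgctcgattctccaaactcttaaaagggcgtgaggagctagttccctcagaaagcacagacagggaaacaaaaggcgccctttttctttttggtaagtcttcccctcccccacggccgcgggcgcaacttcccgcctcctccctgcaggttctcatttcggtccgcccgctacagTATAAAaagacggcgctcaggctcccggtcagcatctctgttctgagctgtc
H1f2 (chr13:23738557-23738856, plus strand): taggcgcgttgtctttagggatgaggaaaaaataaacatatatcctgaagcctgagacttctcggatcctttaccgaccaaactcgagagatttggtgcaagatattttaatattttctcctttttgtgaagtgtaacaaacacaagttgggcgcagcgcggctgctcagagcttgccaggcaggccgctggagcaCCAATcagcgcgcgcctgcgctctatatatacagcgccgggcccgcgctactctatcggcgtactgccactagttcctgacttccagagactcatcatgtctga
CCAAT stood in the windows of 14 of 14 H2A genes, 12 of 12 H2B windows, 7 of 7 H3 genes and 5 of 5 H1 genes but of 2 of 9 H4 genes, against 37.4% of all 32851 promoter windows. The octamer was found only in H2A (6 of 14) and H2B windows (7 of 12) among the 5 families, against 1.74% of all windows. The E2F-type motif was in 5 H2A and 3 H2B windows and in none of the H3, H4 and H1 windows, against 0.813% of all windows. TATAAA was in 29 of the 47 histone windows (61.7%), against 13.6% of all windows. These matches describe letters in a window and are not shown binding sites. Head-to-head genes share most of a window, so their matches are not separate counts.

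Differences are given as the TMA mean minus the TDA mean of log2 values, after background correction, quantile normalization and a filter on dim probes that left 12848 probes of 8963 genes for testing. Over all these genes 153 were lower and 154 higher on the TMA arrays at a limma adjusted p below 0.05. All 6 arrays came from 1 BeadChip with TMA in its first and TDA in its last positions, so group and chip position cannot be told apart. Mean raw signal was 615 to 635 on the TMA arrays and 560 to 845 on the TDA arrays, the highest on TDA1. The groups separated on the first principal component, which held 45.5% of the variance. There TMA1 (score -5.78) lay nearer to the TDA arrays (20.5 to 29.1) than TMA2 (-37.6) and TMA3 (-29.6) did. On the second (25.0%), TDA2 (score -36.6) and TDA3 (26.9) lay at opposite ends. Of the 7 epithelial markers on the array, 6 were tested and none passed the threshold in limma, with 3 at an unadjusted p below 0.05, all higher on TMA. Keratin 8 had log2 values of 12.77 to 13.63 over the 6 arrays, while keratin 19, the marker not tested, was dim at 6.12 to 6.58. Of 19 markers of fibroblasts, leukocytes, endothelium and adipocytes, 6 were tested and none passed the threshold or an unadjusted p of 0.05, and the array means of these 4 lists spanned 6.65 to 8.00 on the TMA arrays and 6.70 to 7.99 on the TDA arrays. The leukocyte marker Cd14 was the exception in brightness, at 13.11 to 14.38 on the TMA arrays and 14.19 to 14.46 on the TDA arrays, while Ptprc, which marks all leukocytes, was dim and not tested.

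Of the 51 histone genes, 41 passed the filter. The H2A family held every histone gene that passed the test. There 9 of 13 tested genes were lower on the TMA arrays, by 4.87-fold to 8.14-fold. Fewer cells in S phase and less histone mRNA per cell cannot be told apart in RNA of whole cultures. These 9 of 41 genes (22.0%) stand beside 1.71% of all tested genes called lower. No histone gene was called higher, against 1.72% of all tested genes. At an unadjusted limma p below 0.05, 18 histone genes were lower, against 9.24% of all tested genes, and 20 differed in either direction, against 19.3%. The difference was below 0 for 34 of the 41 genes (82.9%), against 50.7% of all tested genes. Their median difference was -0.71, beside -0.00456 over all tested genes. All 3 TMA values lay below all 3 TDA values for 15 histone genes (36.6%), against 11.4% of all tested genes, and above them for 3, against 12.4%.

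**Figure D1:**
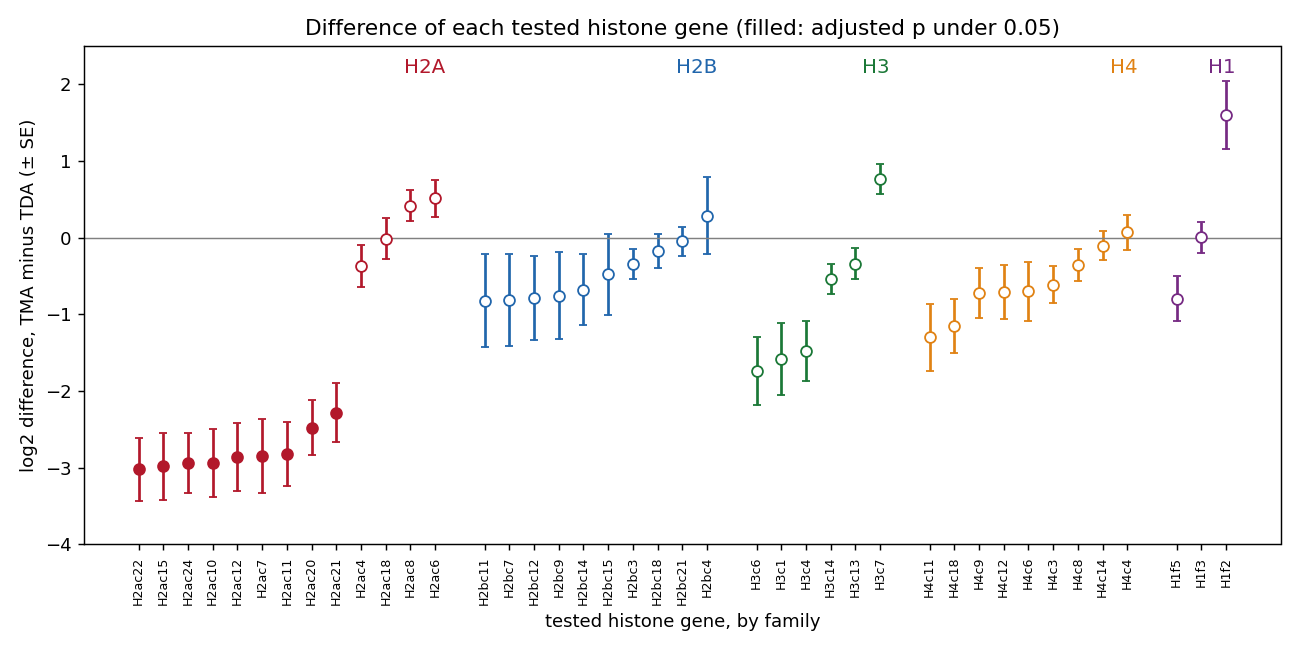
Difference in log2 value, TMA minus TDA, of each of the 41 tested histone genes, by family, with bars of 1 standard error from the limma fit (n = 3 arrays a group) and filled points for genes with an adjusted p below 0.05. The 9 filled points are all H2A genes and lie between -3.03 and -2.28, while H2B genes lie between -0.82 and 0.29 and H1f2 stands alone at 1.60.

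H2A forms a dimer with H2B on the outer face of the nucleosome core. The family's 9 called genes fell by 2.28 to 3.03 on the log2 scale, with limma adjusted p between 0.00778 and 0.0126, and their mean signal ranked between the 78.8 and 99.5 percentile of all probes. The largest difference was in H2ac22, an H2A gene of the chromosome 13 cluster. H2ac22 had log2 values of 10.64, 9.81 and 8.53 on TMA1, TMA2 and TMA3, against 12.70, 12.31 and 13.04 on TDA1, TDA2 and TDA3. All TMA arrays lay below all TDA arrays, and TMA3 was the lowest. The difference was -3.03 ± 0.41 (SE, limma adjusted p = 0.00921, n = 3 arrays a group), an 8.14-fold lower signal on TMA arrays.

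H2ac15, whose promoter is printed above, had 11.96, 10.58 and 9.74 on TMA1, TMA2 and TMA3, against 13.78, 13.32 and 14.12 on TDA1, TDA2 and TDA3. The difference was -2.98 ± 0.43 (SE, limma adjusted p = 0.00980). The groups did not overlap, and the TMA arrays were more spread than the TDA arrays. H2ac24 was the brightest histone gene of the family, and its uncorrected intensities were 8110.5, 3608 and 2263 on TMA1, TMA2 and TMA3, against 37840, 28156 and 31535 on TDA1, TDA2 and TDA3. Its log2 values were 13.07, 11.83 and 11.06 on TMA1, TMA2 and TMA3, against 14.75, 14.86 and 15.18 on TDA1, TDA2 and TDA3. The uncorrected and the normalized values thus ordered the groups the same way, with every TMA array lower. The difference was -2.95 ± 0.39 (SE, limma adjusted p = 0.00778). H2ac10 had 11.45, 10.25 and 9.03 on TMA1, TMA2 and TMA3, against 13.21, 12.94 and 13.40 on TDA1, TDA2 and TDA3, a difference of -2.94 ± 0.45 (SE, limma adjusted p = 0.00980).

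The other called genes were H2ac12 (-2.86), H2ac7 (-2.85) and H2ac11 (-2.82) on chromosome 13 and H2ac20 (-2.48) and H2ac21 (-2.28) on chromosome 3. H2A genes were thus called lower in both clusters, 7 of 10 tested on chromosome 13 and 2 of 3 on chromosome 3. The arrays of a group were not alike. TMA1 was the highest and TMA3 the lowest TMA array in 9 of 9 called genes. Over all tested genes TMA3 was the lowest TMA array in 30.1%. In the 9 genes TMA1 exceeded TMA3 by 1.44 to 2.43 on the log2 scale. Averaged over the 9 genes the log2 values were 11.14, 10.05 and 9.13 on TMA1, TMA2 and TMA3, against 12.98, 12.43 and 13.31 on TDA1, TDA2 and TDA3. The shared pattern of the 9 genes may in part be shared probe targets, which was not tested.

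The 9 calls rested on single arrays in part. Without TDA1 none of the 9 passed the adjusted threshold (0% of all tested genes were then called lower), with limma adjusted p up to 0.0934, although all 9 kept an unadjusted p below 0.05. Without TMA3 1 of them passed, beside 0.0111% of all tested genes, and without TMA2 3 of them, beside 0.111%. Without TDA3 8 passed, beside 0.457%, and without TMA1 all 9, beside 3.02%. In the authors' log2 values 6 of them passed, beside 0.670%, and without background correction 8 of them, beside 0.915%. Under every alternative run all 9 were lower on the TMA arrays, with differences between -3.59 and -1.50.

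The 4 tested H2A genes that were not called (H2ac4, H2ac18, H2ac8 and H2ac6) were dim, with mean log2 values of 7.22 to 7.69, and their differences lay between -0.37 and 0.51. H2ac18 had 7.18, 7.93 and 6.98 on TMA1, TMA2 and TMA3, against 7.34, 7.72 and 7.06 on TDA1, TDA2 and TDA3. The ranges overlapped and the difference was -0.012 ± 0.27 (SE, limma adjusted p = 0.988). H2ac6 differed by 0.51 (limma adjusted p = 0.276). Among the promoter windows of the 9 called genes 5 held the E2F-type motif, and none of those of the 4 others did. The octamer stood in 2 of 9 and in 3 of 4 windows. The E2F-type motif also stood in the windows of H2bc7, H2bc11 and H2bc12, which were not called in the unweighted fit of all 6 arrays. With array quality weights H2bc12 was called (-1.21, limma adjusted p = 0.0423), beside 7.89% of all tested genes called lower. The split of motifs among H2A genes follows the calls themselves, and a link between a motif and a difference was not tested.

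**Figure D2:**
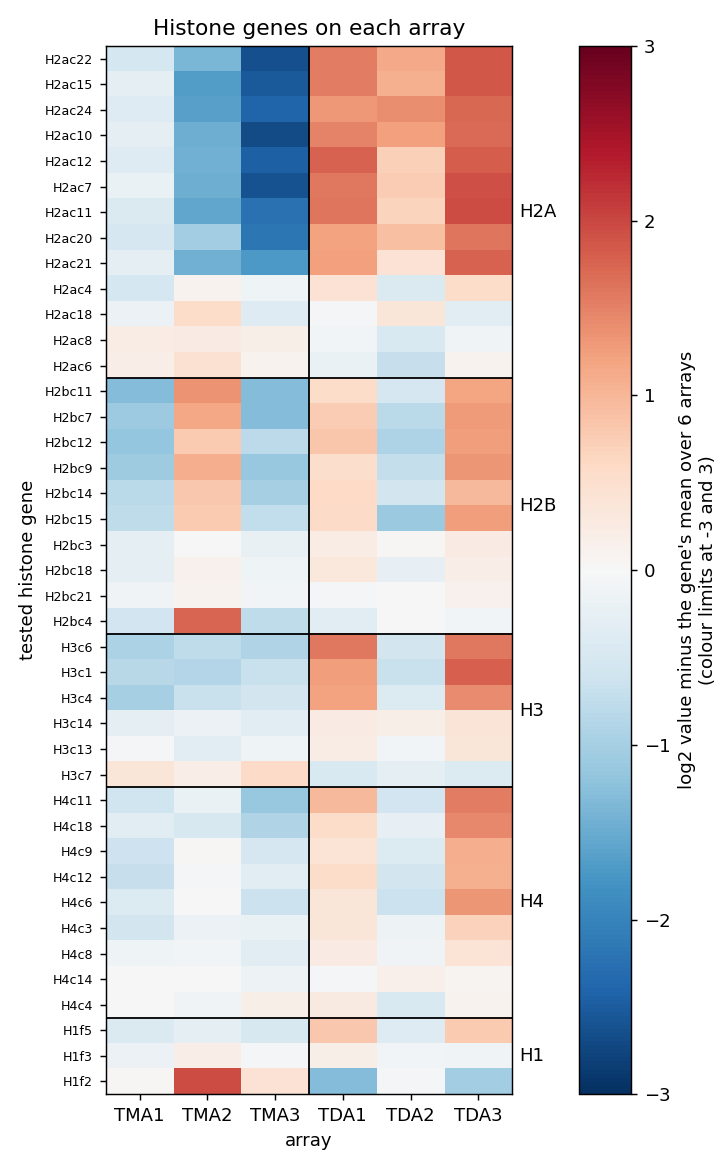
Log2 value of each tested histone gene on each array minus that gene's mean over the 6 arrays, with TMA arrays on the left, genes grouped by family, and colours limited at -3 and 3. The 9 called H2A genes are lowest on TMA3, while H2B genes are highest among the TMA arrays on TMA2 in 10 of 10 cases and lowest among the TDA arrays on TDA2 in 8 of 10.

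H2B is the dimer partner of H2A. None of its 10 tested genes passed the threshold in limma, and none had an unadjusted p below 0.05. The median difference was -0.58, and 9 of 10 differences were below 0. H2bc11 had 8.13, 10.77 and 8.13 on TMA1, TMA2 and TMA3, against 9.97, 8.92 and 10.61 on TDA1, TDA2 and TDA3. TMA2 was higher than every TDA array, and TDA2 was the lowest TDA array. The difference was -0.82 ± 0.61 (SE, limma adjusted p = 0.529). H2bc7, the brightest H2B gene, had 8.39, 10.62 and 8.17 on TMA1, TMA2 and TMA3, against 10.23, 8.66 and 10.74 on TDA1, TDA2 and TDA3, and again TMA2 lay high and TDA2 low. Its difference was -0.82 ± 0.60 (SE, limma adjusted p = 0.528).

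H2bc12 had 7.53, 9.49 and 7.91 on TMA1, TMA2 and TMA3, against 9.54, 7.77 and 9.97 on TDA1, TDA2 and TDA3. H2bc9 had 8.14, 10.30 and 8.08 on TMA1, TMA2 and TMA3, against 9.74, 8.50 and 10.55 on TDA1, TDA2 and TDA3. In both genes the TMA and TDA ranges overlapped through TMA2 and TDA2, and the differences were -0.78 and -0.76 (limma adjusted p = 0.503 and 0.539). TMA2 was the highest TMA array in 10 of 10 tested H2B genes, against 34.4% of all tested genes, and TDA2 the lowest TDA array in 8 of 10, against 38.1% of all tested genes. Averaged over the family the log2 values were 7.74, 9.28 and 7.74 on TMA1, TMA2 and TMA3, against 8.88, 8.00 and 9.26 on TDA1, TDA2 and TDA3. H2bc21 differed least, at 7.63, 7.84 and 7.64 on TMA1, TMA2 and TMA3, against 7.66, 7.74 and 7.85 on TDA1, TDA2 and TDA3, a difference of -0.051 ± 0.19 (SE, limma adjusted p = 0.930). H2bc4 was the only H2B gene with a difference above 0, at 0.29, and its second probe, which was too dim to be tested, gave -0.15.

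H3 and H4 form the tetramer at the centre of the nucleosome. None of 6 tested H3 genes passed the threshold. The median difference was -1.01, and at an unadjusted limma p below 0.05 there were 4 lower and 1 higher. H3c6 had 8.06, 8.26 and 8.12 on TMA1, TMA2 and TMA3, against 10.59, 8.47 and 10.59 on TDA1, TDA2 and TDA3. The 3 TMA arrays were close together and below all TDA arrays, while TDA2 lay near the TMA values and far from the other TDA arrays. The difference was -1.74 ± 0.45 (SE, limma adjusted p = 0.0567).

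H3c1 had 7.55, 7.51 and 7.73 on TMA1, TMA2 and TMA3, against 9.65, 7.72 and 10.19 on TDA1, TDA2 and TDA3, and its difference was -1.59 ± 0.47 (SE, limma adjusted p = 0.0877). H3c4 had 8.27, 8.62 and 8.71 on TMA1, TMA2 and TMA3, against 10.49, 8.86 and 10.70 on TDA1, TDA2 and TDA3, and its difference was -1.48 ± 0.39 (SE, limma adjusted p = 0.0601). In both genes TDA2 again lay nearest to the TMA arrays, and in H3c1 it lay just below TMA3. TDA2 was the lowest TDA array in 5 of the 6 tested H3 genes.

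H3c13, on chromosome 3, was the brightest H3 gene and had the smallest difference. It had 11.06, 10.77 and 10.98 on TMA1, TMA2 and TMA3, against 11.32, 11.03 and 11.47 on TDA1, TDA2 and TDA3, a difference of -0.34 ± 0.21 (SE, limma adjusted p = 0.427). Its neighbour in the same cluster, H3c14, differed by -0.54 (limma adjusted p = 0.147), and a second tested probe of it gave -0.40. H3c7 was the only H3 gene with a difference above 0. It had 7.56, 7.39 and 7.75 on TMA1, TMA2 and TMA3, against 6.72, 6.90 and 6.78 on TDA1, TDA2 and TDA3, so that all TMA arrays lay above all TDA arrays at a low signal. Its difference was 0.77 ± 0.20 (SE, limma adjusted p = 0.0570), and its other 2 probes, both too dim to be tested, gave 0.56 and -0.057. The TDA mean of H3c7 was 6.80, below the filter cut of 7.02, so it was tested only through its TMA values.

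None of 9 tested H4 genes passed the threshold, with a median difference of -0.70 and 4 genes lower at an unadjusted limma p below 0.05. H4c11, the brightest H4 gene, had 7.64, 8.04 and 7.10 on TMA1, TMA2 and TMA3, against 9.22, 7.68 and 9.78 on TDA1, TDA2 and TDA3. TDA2 fell within the TMA range and the other TDA arrays lay above it. The difference was -1.30 ± 0.43 (SE, limma adjusted p = 0.125). H4c18 had 7.16, 7.004 and 6.58 on TMA1, TMA2 and TMA3, against 8.04, 7.24 and 8.93 on TDA1, TDA2 and TDA3, a difference of -1.15 ± 0.35 (SE, limma adjusted p = 0.0974) with no overlap between the groups. Its TMA mean of 6.92 lay below the filter cut of 7.02, so H4c18 was tested only through its TDA values.

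H4c9 had 7.50, 8.15 and 7.60 on TMA1, TMA2 and TMA3, against 8.51, 7.71 and 9.19 on TDA1, TDA2 and TDA3, and differed by -0.72 ± 0.33 (SE, limma adjusted p = 0.264). H4c12 had 7.19, 7.84 and 7.56 on TMA1, TMA2 and TMA3, against 8.43, 7.34 and 8.95 on TDA1, TDA2 and TDA3, and differed by -0.71 ± 0.35 (SE, limma adjusted p = 0.303). The groups of both genes overlapped through TDA2, which was the lowest TDA array in 8 of the 9 tested H4 genes. The smallest difference was that of H4c4, with 7.60, 7.47 and 7.76 on TMA1, TMA2 and TMA3, against 7.84, 7.12 and 7.68 on TDA1, TDA2 and TDA3 (0.067 ± 0.23, SE, limma adjusted p = 0.922).

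H1 genes encode the linker histones, and the 3 tested ones differed in sign. None passed the threshold in limma, with 1 lower and 1 higher at an unadjusted p below 0.05. H1f2 had the largest positive difference of any tested histone gene. It had 10.02, 11.95 and 10.42 on TMA1, TMA2 and TMA3, against 8.70, 9.93 and 8.96 on TDA1, TDA2 and TDA3. All TMA arrays lay above all TDA arrays, although TMA1 exceeded TDA2 only slightly, and the array numbered 2 was the highest in each group. The difference was 1.60 ± 0.44 (SE, limma adjusted p = 0.0692), a 3.03-fold higher mean signal on TMA arrays.

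H1f5 had 7.35, 7.48 and 7.29 on TMA1, TMA2 and TMA3, against 8.57, 7.40 and 8.55 on TDA1, TDA2 and TDA3, a difference of -0.80 ± 0.29 (SE, limma adjusted p = 0.159) with TDA2 inside the TMA range. H1f3 had 6.95, 7.32 and 7.09 on TMA1, TMA2 and TMA3, against 7.30, 7.04 and 7.003 on TDA1, TDA2 and TDA3, a difference of 0.00486 ± 0.20 (SE, limma adjusted p = 0.994). The median of the 3 H1 genes was that of H1f3 and changed sign with the scaling.

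**Figure D3:**
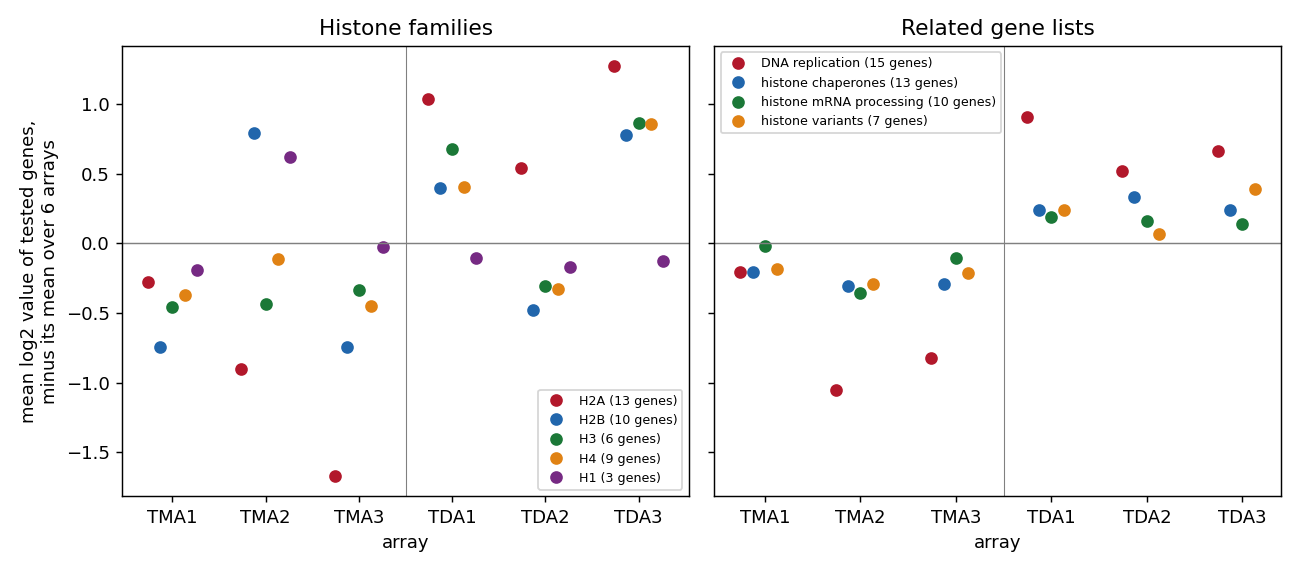
Mean log2 value of the tested genes of each histone family (left) and of each related gene list (right) on each array, minus its mean over the 6 arrays, with TMA arrays left of the line and TDA arrays right of it. The means of H2A, H3 and all 4 related lists are lower on every TMA array than on any TDA array, by little for H3 (at most 8.98 on TMA and at least 9.01 on TDA arrays), whereas those of H2B, H4 and H1 overlap between the groups.

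Each array was left out in turn. Among these runs the one without TDA2 gave the most histone genes called lower, and the one without TDA1 the fewest. Without TDA2, 19 histone genes were lower on TMA arrays, beside 2.81% of all tested genes. They were the 9 H2A genes, 3 H3 genes (H3c6 -2.45, H3c1 -2.33 and H3c4 -2.06), 6 H4 genes, among them H4c11 (-1.92) and H4c18 (-1.58), and H1f5 (-1.20). H1f2 (1.97, limma adjusted p = 0.0104) and H3c7 (0.83, limma adjusted p = 0.0434) were called higher, beside 2.68% of all tested genes. No H2B gene was called, and the lowest adjusted p among them was 0.0570.

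A fit without both TMA2 and TDA2, chosen after seeing the data, called 25 histone genes lower, beside 1.89% of all tested genes. Now 6 of 10 H2B genes were called, among them H2bc7 (-2.20), H2bc11 (-2.16), H2bc12 (-2.05) and H2bc9 (-2.04). The 9 H2A, 4 H3, 5 H4 and 1 H1 genes made up the rest. Over the 10 tested H2B genes the differences lay between -2.20 and -0.13. H1f2 (1.39, limma adjusted p = 0.00536) and H3c7 (0.95, limma adjusted p = 0.0420) were called higher, beside 1.69% of all tested genes. This fit rests on 4 arrays. With array quality weights on all 6 arrays 21 histone genes were called lower, but so were 7.89% of all tested genes. Whether the arrays numbered 2 differ in culture, RNA or hybridisation was not tested.

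H2A and H2B genes that lie head to head could be compared directly. The promoter windows of 9 such pairs overlap on opposite strands, 6 pairs have both genes on the array, and 4 have both tested. H2ac15 and H2bc15 share 263 bases, and their differences were -2.98 and -0.48. H2ac12 and H2bc12 share 277 bases, and their differences were -2.86 and -0.78. H2ac7 and H2bc7 share 273 bases, H2ac11 and H2bc11 share 252 bases, and their H2A members differed by -2.85 and -2.82, while both H2B members differed by -0.82. On the array but not both tested were H2ac8 (0.42) with H2bc8 (0.029), where the H2A gene had the higher difference, and H2ac1 (-0.26) with H2bc1 (0.039). In each of the 4 tested pairs the H2A gene, already called lower above, had the lower difference. The gap between the differences of a tested pair lay between -2.50 and -1.998 on the log2 scale. An exact two-sided permutation test of this gap over the arrays gave p = 0.1 for the pair H2ac15 and H2bc15, 0.2 for H2ac12 and H2bc12, 0.3 for H2ac7 and H2bc7, and 0.2 for H2ac11 and H2bc11. The Benjamini-Hochberg adjusted values over the 4 pairs were 0.267 to 0.3, and 0.1 is the smallest p that 3 arrays against 3 allow, so that the test could not reach 0.05 for any gap.

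**Figure D4:**
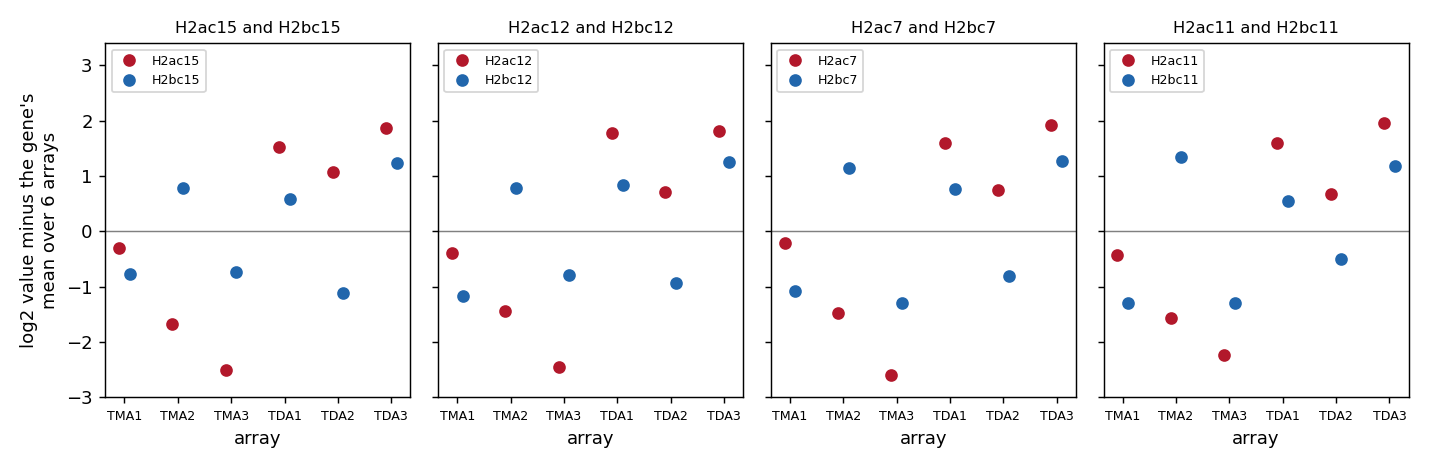
Log2 value of each gene minus its own mean over the 6 arrays for the 4 head-to-head pairs of an H2A gene and an H2B gene that were both tested, with TMA arrays on the left. The H2A gene is below its mean on every TMA array and above it on every TDA array in all 4 pairs, while the H2B gene is above its mean on TMA2 and below it on TDA2.

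The 10 histone genes that were too dim for the test were H1f1, H1f4, H2ac1, H2bc1, H2bc6, H2bc8, H3c3, H3c8, H3c10 and H4c2. Their log2 values over the 6 arrays lay between 5.83 and 8.12, and their differences between -1.32 and 0.039. H2ac1 and H2bc1 are the testis forms of H2A and H2B. All TMA arrays lay below all TDA arrays for H3c3 (6.63, 5.83 and 6.22 on the TMA arrays, against 7.77, 6.74 and 8.12 on the TDA arrays) and for H3c10 (5.86, 6.70 and 6.20 on the TMA arrays, against 7.63, 7.05 and 7.14 on the TDA arrays). The filter used the mean over all 6 arrays, with its cut at 7.015, so a gene could pass through 1 group alone. H4c18 and H4c3 (TMA means 6.92 and 6.93) passed through the TDA arrays, and H3c7 and H2ac8 (TDA means 6.80 and 7.011) through the TMA arrays. They are among the histone genes counted above as without overlap, which is no separate support. Without the filter 12 histone genes were called lower, beside 0.948% of all genes then tested.

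Genes that serve histone supply were taken as 2 lists, and both lists were chosen with earlier results of these data known. Of 13 chaperone, import and acetylation genes, all 13 were tested, 3 were lower, none was higher, and their median difference was -0.54, beside 1.71% called lower over all tested genes. Nasp, a chaperone of free H3 and H4, had 8.03, 7.87 and 7.92 on TMA1, TMA2 and TMA3, against 9.06, 9.42 and 8.72 on TDA1, TDA2 and TDA3 (-1.13 ± 0.22, SE, limma adjusted p = 0.0226). Other tested probes of Nasp gave -1.16 and -0.55, the latter not called (limma adjusted p = 0.222). Chaf1a, the large subunit of the chromatin assembly factor that loads H3 and H4 behind the fork, fell by 1.05 (limma adjusted p = 0.0336). Nap1l1, a chaperone of H2A and H2B, fell by 0.99 (limma adjusted p = 0.0407), but its second, dimmer probe gave -0.018. All 3 calls were lost with median scaling, with the authors' log2 table and without TMA2, TMA3 or TDA1, where adjusted p lay between 0.0558 and 0.185. Hat1, which acetylates new H4, had every TMA array below every TDA array and a difference of -1.17 (limma adjusted p = 0.0526).

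Of 18 genes for histone transcription and mRNA 3′ end processing, 10 were tested and none passed the threshold in limma. Their median difference was -0.36, and 3 had an unadjusted p below 0.05, all of them lower. The smallest p belonged to Cstf2, a subunit of the cleavage stimulation factor (-0.94, limma adjusted p = 0.0971), and to Srrt, which acts with the cap-binding complex (-0.90, limma adjusted p = 0.116). Slbp itself was too dim for the test, with 5.97 to 6.12 on the TMA arrays and 5.88 to 6.35 on the TDA arrays.

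Of 17 DNA replication genes, 15 were tested, 11 were lower, none was higher, and the median difference was -1.28, beside 1.71% called lower over all tested genes. The 11 calls became 0 without TMA3 or without TDA1, beside 0.0111% and 0% of all tested genes called lower. They became 1 without TMA2 (beside 0.111%) and 4 without TDA3 (0.457%). They became 5 with median scaling (0.636%) and 5 in the authors' log2 values (0.670%). Without background correction 6 were called (0.915%), and with the dimmest tested probe of each gene 8 (1.44%). The median difference of the list stayed below 0 in each of these fits. Mcm5 (-2.41), Rrm2 (-1.96), Tyms (-1.77) and Mcm6 (-1.71) had the largest called differences. Other tested probes of Tyms gave -1.30 and -0.12, the latter not called (limma adjusted p = 0.851). As in the H2A family, the mean over the replication genes was highest on TMA1 among the TMA arrays (8.93, 8.09 and 8.32 on TMA1, TMA2 and TMA3, against 10.04, 9.66 and 9.80 on TDA1, TDA2 and TDA3). Of 8 listed histone variant genes that the rule for members leaves out, 7 were tested and 2 were lower, with a median difference of -0.27, beside 1.71% called lower over all tested genes. No variant was called with median scaling, without background correction, in the authors' log2 values or without TMA2, TMA3, TDA1 or TDA3. The 2 called genes were Cenpa, the H3 variant of centromeres (-1.29, limma adjusted p = 0.0313), and H2ax, the H2A variant that is phosphorylated at DNA breaks (-1.19, limma adjusted p = 0.0405). H2az1 (-0.50), H3f3b (-0.25) and H3f3a (0.19), which encode variants deposited outside S phase, did not pass.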

How the data were processed

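For 6 Illumina arrays the authors deposited non-normalized signal intensity per probe, with no background subtracted. A second deposited table holds the authors' normalized log2 values, whose normalization method, like the scanner software, is not given in the sources used here. Per the labels' protocols, Trizol was used to extract RNA, and labelling followed Illumina's standard procedure. No detection p-value was used here. Intensities were corrected with normexp (offset 50), quantile-normalized and converted to log2 in limma 3.58.1 under R 4.3.3, so fold changes are on the scale of log2 of corrected signal plus offset, which understates dim genes. Probes with a mean log2 value above the median of all probes (7.02) were tested two-sided with lmFit and eBayes. P-values were adjusted over these 12848 probes by Benjamini-Hochberg, and the threshold was 0.05. A gene was represented by its tested probe with the highest mean. The number of arrays (3 a group, 4 residual degrees of freedom) limits precision, and the median standard error of a difference was 0.223. Of 25697 probes 23846 had 1 gene symbol, 0 several and 1851 none in the platform annotation, and all 51 histone symbols matched the RefSeq gene table.

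The histone genes and the gene lists were chosen with earlier results of these data known. Genes given array by array are, per family, the 4 tested genes with the largest differences, the one with the smallest and the brightest. Named per related list are the called genes that differed most (up to 4) or, with none called, the 2 of lowest p. Apart from Nasp these are given by their differences only. Other genes, such as H2bc4, H2ac6, H3c14, Hat1, Slbp, Cd14 and the remaining called H2A genes, do not follow from these rules and were picked with their values known. Alternatives covered background correction, scaling, filter, probe choice, each array left out, replicate number as a block, array weights and the prior. Figures were drawn with matplotlib 3.10.9. The code was tested on simulated data.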

Additional observations from a re-analysis of the deposited data

How the results depend on the processing

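The count of 9 histone genes called lower (beside 1.71% of all tested genes) changed with the processing. Brackets give the share of all tested genes called lower in the same fit. The count was 6 with the authors' log2 table (0.670%), 8 without background correction (0.915%) and 12 without the filter (0.948%). With the replicate block it was 12 (2.30%), and with array quality weights 21 (7.89%). It ranged from 0 to 19 when each array was left out in turn. There were 9 without TMA1 (3.02%), 3 without TMA2 (0.111%), 1 without TMA3 (0.0111%) and 0 without TDA1 (0%). Without TDA2 there were 19 (2.81%), without TDA3 8 (0.457%) and without both arrays numbered 2 25 genes (1.89%). The median difference of -0.71 was -1.30 with the stricter filter, which kept 25 histone genes, -1.49 without both arrays numbered 2, and -1.17 to -0.37 with 1 array left out. The 387 tested probes past the threshold became 200 without background correction, 129 with median scaling, 135 with the authors' log2 table, 232 with the stricter filter, 1912 with array quality weights, 524 with the replicate block, and 0 to 698 with 1 array left out. The 3 processing and chaperone genes became 0 with median scaling, 0 with the authors' log2 table, 5 without the filter (4 chaperone genes lower and 1 processing gene higher), 1 with the dimmest tested probe, 5 with the replicate block, 11 with array quality weights, and 0 to 6 with 1 array left out. The replicate block does not follow a shown pairing, since samples with the same number correlated at 0.126, 0.0128 and 0.0268 around their group means. Differences near 0 changed sign. H1f3 (0.00486) was -0.031 with median scaling, -0.00506 with the authors' log2 table, -0.10 with array quality weights, -0.14 without both arrays numbered 2 and -0.097 to 0.092 with 1 array left out. H2ac18 (-0.012) was 0.00157 without background correction and -0.30 to 0.18 with 1 array left out. H4c4 (0.067) was -0.082 with array quality weights, -0.078 without both arrays numbered 2 and -0.15 to 0.20 with 1 array left out. H1f2 passed the threshold without the filter, with the replicate block, with array quality weights, without TMA1, without TDA2 and without both arrays numbered 2, with adjusted p between 0.00173 and 0.0470. The cause of these shifts was not tested. Without detection p-values, no signal could be called above background, which limits the dim genes of every histone family.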
